A study of Homo sapiens with 4 samples.

Results

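The genes described here lie together on the long arm of chromosome 3, from 157259743 to 186362234 on the genome build hg38, a stretch of 29.1 Mb in bands 3q25 to 3q27. They were measured by RNA sequencing in TPC1, a long-established cell line from a human papillary thyroid carcinoma. The ends of the stretch had been chosen by the measured differences themselves, as a run of neighbouring genes that were lower in TPC1-INAVA, so the direction of these genes is a description of how they were picked and not a finding. The rule kept genes whose 2 group values averaged 0.5 FPKM or more and left out ETV5, SHOX2, PRKCI, EPHB3 and a few gene families by name. FPKM is a level per length, the number of sequenced fragments divided by the transcript's length and by the library's mapped fragments. Of 99 genes that the table lists in the segment, 11 were left out by name and 10 were under the limit on the mean, which left 78 genes (members) of the 12305 genes kept in the whole table of 13165.

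TPC1-Vector cells carried the empty vector, and TPC1-INAVA cells stably expressed C1orf106, the gene now named INAVA, after transfer of a puromycin-resistance vector, which the study's methods describe as the retroviral pQCXIP. Both groups were grown in the same medium and passed through puromycin selection, which kills cells without the vector. Each group is 1 stable line, selected on its own, with 2 libraries, and the labels do not say whether the libraries came from separate cultures. The authors deposited 1 FPKM value per gene and group, so no spread between libraries, no standard error and no test can be given, and every comparison below sets 2 values side by side, that of TPC1-Vector always first. The number of reads behind each value is unknown.

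INAVA, which checks the labels, was at 7.96 FPKM with the empty vector and at 123 FPKM in TPC1-INAVA. Of the thyroid follicular markers looked for, 3 were listed in the table, all of them transcription factors, with PAX8 at 60.1 and 55.7 FPKM, FOXE1 at 5.26 and 5.89 FPKM and HHEX at 8.33 and 10.04 FPKM, while thyroglobulin (TG) and the thyrotropin receptor (TSHR) were not listed. Of 6 epithelial markers 3 were listed, and they did not move together, with KRT18 at 140.3 and 212 FPKM, KRT8 at 23.4 and 10.5 FPKM and KRT7 at 1.97 and 2.01 FPKM. No endothelial marker of 3 was listed. The one leukocyte marker listed, CD68, was at 5.76 and 8.67 FPKM, and the one fibroblast marker listed, LUM, was at 0.383 and 0.225 FPKM. RNA was taken from whole cultures, in which fewer cells with a transcript and less RNA per cell cannot be told apart.

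Genes that neighbour each other on a chromosome can share a level of expression because they share copy number, chromatin or regulatory sequence, although most genes of such a stretch have unrelated functions. The distal part of 3q is known in cancer biology as a region that is often gained in squamous carcinomas, with PIK3CA, the alpha catalytic subunit of phosphoinositide 3-kinase, the cell division factor ECT2 and the oncogenic transcription factor MECOM among its best known genes. The region also holds many genes that nearly every cell uses, for translation, the proteasome, mitochondria and vesicle traffic. DNA was not measured in these samples.

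The promoters show what stands in front of these genes. For 69 of the 78 members RefSeq gave a promoter (build GRCh38.p14), taken as 250 bases before and 50 bases after the first listed start. The 250 bases before the start are printed for the 3 members with the largest differences downward among those at 1 FPKM or more (DGKG, LXN and GPR160), for PIK3CA and TBL1XR1 as known 3q26 genes, and for ZMAT3, which was higher in TPC1-INAVA. Capitals mark matches on either strand to the TATA box (TATAAA), the CCAAT box (CCAAT), the GC box (GGGCGG) and the E-box (CACGTG), and the matches in TBL1XR1 overlap one another.
DGKG (chr3:186362235-186362484, reverse strand): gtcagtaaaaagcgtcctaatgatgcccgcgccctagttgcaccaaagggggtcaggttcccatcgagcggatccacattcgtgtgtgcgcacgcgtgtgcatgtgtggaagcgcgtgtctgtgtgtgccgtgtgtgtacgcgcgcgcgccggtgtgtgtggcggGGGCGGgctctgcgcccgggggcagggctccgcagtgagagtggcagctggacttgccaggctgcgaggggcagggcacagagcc
LXN (chr3:158672649-158672898, reverse strand): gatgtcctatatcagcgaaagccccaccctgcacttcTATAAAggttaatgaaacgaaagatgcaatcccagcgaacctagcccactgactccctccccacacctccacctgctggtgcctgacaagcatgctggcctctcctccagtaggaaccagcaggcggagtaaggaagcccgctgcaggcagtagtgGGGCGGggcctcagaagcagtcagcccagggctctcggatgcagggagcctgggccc
GPR160 (chr3:170037745-170037994, forward strand): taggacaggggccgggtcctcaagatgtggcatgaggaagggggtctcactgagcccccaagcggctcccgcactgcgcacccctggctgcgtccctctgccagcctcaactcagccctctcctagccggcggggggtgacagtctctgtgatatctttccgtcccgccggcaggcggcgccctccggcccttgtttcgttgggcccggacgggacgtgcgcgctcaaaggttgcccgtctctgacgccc
PIK3CA (chr3:179148107-179148356, forward strand): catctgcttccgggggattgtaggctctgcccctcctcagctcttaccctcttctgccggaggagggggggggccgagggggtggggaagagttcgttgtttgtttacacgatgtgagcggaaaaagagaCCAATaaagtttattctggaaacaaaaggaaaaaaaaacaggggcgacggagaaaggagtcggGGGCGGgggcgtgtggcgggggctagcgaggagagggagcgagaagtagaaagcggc
TBL1XR1 (chr3:177197483-177197732, reverse strand): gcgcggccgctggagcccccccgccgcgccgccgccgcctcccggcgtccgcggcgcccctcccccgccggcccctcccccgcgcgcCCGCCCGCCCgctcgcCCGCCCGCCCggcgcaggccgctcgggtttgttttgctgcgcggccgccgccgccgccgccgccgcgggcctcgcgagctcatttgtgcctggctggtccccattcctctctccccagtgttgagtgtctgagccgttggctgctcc
ZMAT3 (chr3:179071810-179072059, reverse strand): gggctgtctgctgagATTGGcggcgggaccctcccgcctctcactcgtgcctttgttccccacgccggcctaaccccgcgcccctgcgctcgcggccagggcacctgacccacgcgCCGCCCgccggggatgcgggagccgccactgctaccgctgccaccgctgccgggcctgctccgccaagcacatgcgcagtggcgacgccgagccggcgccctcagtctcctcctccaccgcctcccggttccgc

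Among the 3 members with the largest downward differences, the LXN promoter held a TATA box and a GC box, that of DGKG 1 GC box, and that of GPR160 none of the motifs. TBL1XR1 had the most GC-rich sequence of those printed, at 81.2%, and PIK3CA the least, at 57.6%. ZMAT3 held 1 CCAAT box and 1 GC box, as did PIK3CA, although their values went in opposite directions. Over the full stretch of 250 bases before and 50 after the start, a GC box was found in 68.1% of the members' promoters, in 67.6% of those of the rest of chromosome 3, in 71.4% of those of all genes kept and in 44.6% of all promoters in the RefSeq table. The CCAAT box was found in 34.8%, 32.2%, 36.9% and 35.7% of the same sets, the E-box in 11.6%, 10.4%, 10.5% and 7.43%, and the TATA box in 7.25%, 5.80%, 5.01% and 12.0%. The median GC content was 64% for members and 65% for the rest of chromosome 3. In base composition and motif shares the members' promoters were thus close to those of other expressed genes. Members with a GC box (47 genes) had a median log2 difference of -0.35 and those without one (22 genes) -0.23, which was not tested. The other motifs split the members the other way or by less, with medians of -0.21 with an E-box and -0.35 without, -0.28 with a CCAAT box and -0.35 without, and -0.39 with a TATA box (5 genes) and -0.33 without. A match to these letters is a description and not a binding site.

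Differences were computed as log2(FPKM + 0.5) in TPC1-INAVA minus TPC1-Vector, on which changes of genes with low values appear smaller. The median of the 78 members was -0.32, that is 1.25-fold lower, with quartiles of -0.41 and -0.19. In the 615 genes kept from the rest of chromosome 3 the median was 0.0032, with quartiles of -0.11 and 0.12, and over all 12305 genes it was 0.0033. Medians of whole chromosomes, 23 in all, ranged from -0.25 to 0.13, so shifts away from 0 were not limited to this segment. Of the members, 72 were lower and 6 were higher in TPC1-INAVA, and 49.2% of all genes kept were lower. At least 1.2-fold lower were 46 members, against 9.63% of all genes kept and 52 of the 615 genes in the rest of chromosome 3. At least 1.5-fold lower were 4 members (all genes, 1.45%), and 2 members were at least 1.2-fold higher (all genes, 10.6%). Since the segment was picked on these differences, nothing is read from the distance between the members' counts and these background shares.

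**Figure D1:**
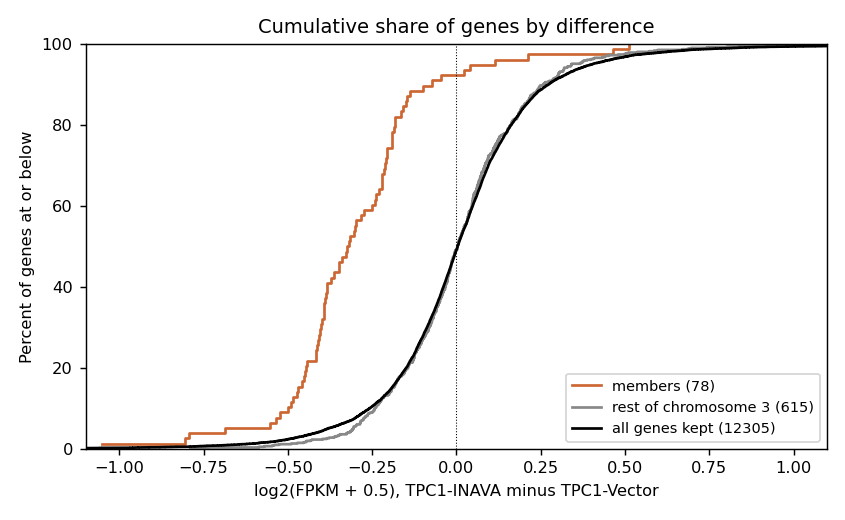
Percent of genes (vertical axis) at or below each log2 difference between the groups (horizontal axis, log2 of FPKM + 0.5), for the 78 members, 615 genes of the rest of chromosome 3 and all 12305 genes kept. The members' curve lies to the left, with its middle at -0.32, while the other curves pass through 0 near their middle and nearly coincide.

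Close to their own median the members' share was near that of other genes, and within 0.2 of it their share was larger. The members were picked on these differences, so nothing is read from their spread or from their summed level below. Within 0.1 of the median lay 33 of the 78 members (42.3%), against 45.5% of the rest of chromosome 3 and 43.2% of all genes kept. Within 0.2 lay 62 members (79.5%), against 71.2% and 70.1%. Summed over the members, 3019.9 FPKM in TPC1-Vector stood against 2492 FPKM in TPC1-INAVA, 17.5% less, and the sums of the rest of chromosome 3 had a ratio of 1.02. The sum is led by a few genes, since 6 members averaged 100 FPKM or more, 50 averaged 10 FPKM or more and 3 were under 1 FPKM.

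Strongly expressed members were all lower, and here too the direction describes how the segment was picked and is not a finding. The 21 members that averaged 30 FPKM or more ranged from -0.52 to -0.10, with a median of -0.31. The 29 members between 10 and 30 FPKM had a median of -0.33, with 27 lower. From 2 to 10 FPKM there were 18 members with a median of -0.29, of which 17 were lower. The 10 members between 0.5 and 2 FPKM were the most spread, from -1.05 to 0.51, with 7 lower and a median of -0.34. In the rest of chromosome 3 the median stayed between -0.017 and 0.049 in the same classes.

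**Figure D2:**
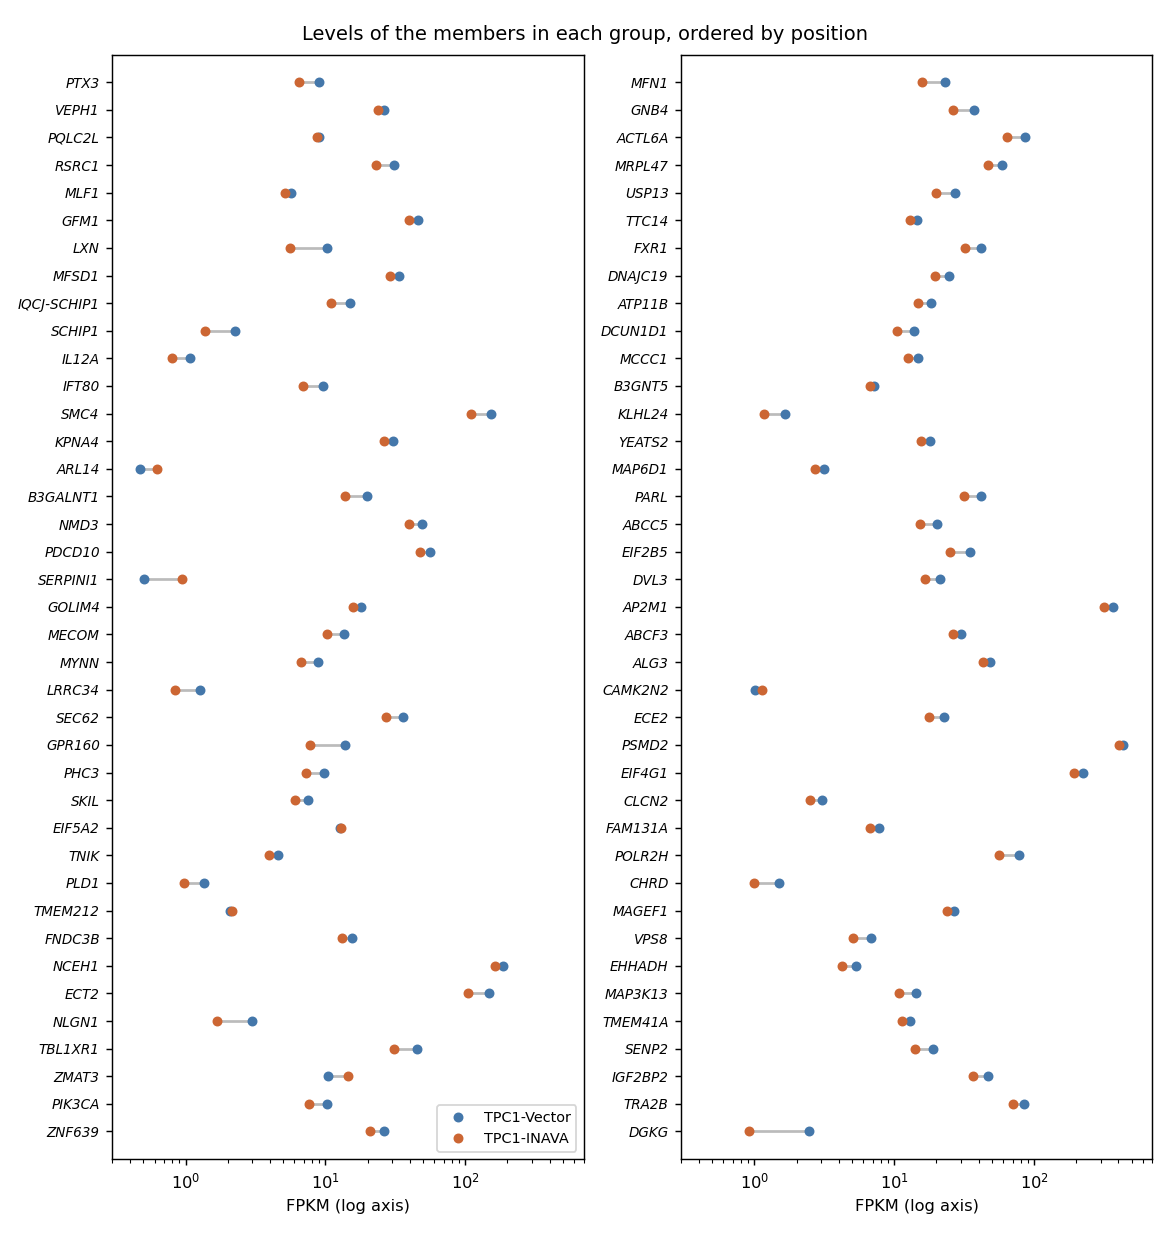
FPKM of each of the 78 members (log axis) in TPC1-Vector (blue) and TPC1-INAVA (orange), 1 authors' value per group, in order of position down the left panel and then down the right panel. The TPC1-INAVA point lies to the left for 72 genes, and to the right for ARL14, SERPINI1, EIF5A2, TMEM212, ZMAT3 and CAMK2N2.

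By position, the lower values ran through the whole stretch, with wide gaps that hold no kept member. The segment and its ends were picked on these differences. The counts by position and the contrast with the flanks therefore describe that choice and are not a finding. Of all genes kept, 49.2% were lower. In the first 5 Mb from the start, 16 of 17 members were lower, with a median of -0.30. The longest gap followed, 6.46 Mb between the starts of NMD3 and PDCD10. From 10 to 15 Mb, 12 of 15 members were lower (median -0.27), and from 15 to 20 Mb all 4 were (median -0.51). From 20 to 25 Mb, 10 of 11 were lower with a median of -0.37, and the gene-dense end beyond 25 Mb held 31 members, of which 30 were lower, with a median of -0.30. In the 5 Mb before the segment the median of 13 genes was 0.054, with 5 lower and none at least 1.2-fold lower. In the 5 Mb after it the median of 16 genes was -0.0096, with 9 lower and 4 at least 1.2-fold lower.

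**Figure D3:**
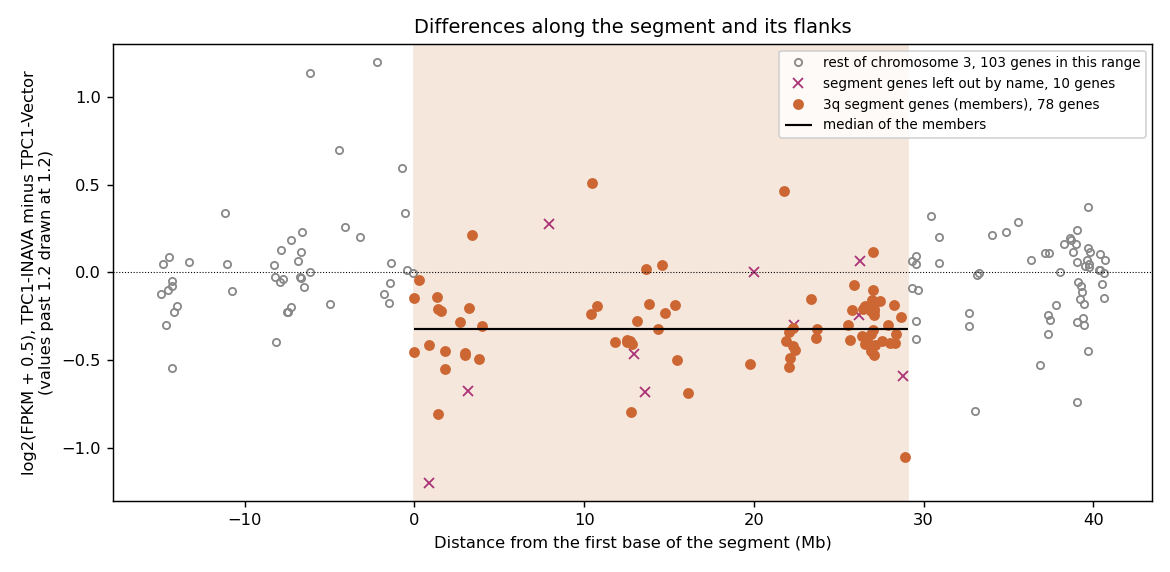
Log2 difference of each gene (vertical axis, log2 of FPKM + 0.5, TPC1-INAVA minus TPC1-Vector) against its distance in Mb from the first base of the segment, which is shaded. Members (filled circles) scatter about their median of -0.32 (line), segment genes left out by name are crosses, and genes outside (open circles) scatter about 0. The segment and its ends were picked on these differences.

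The ends of the segment are the places where the rule drew its limits. Just inside the start, PTX3 (the long pentraxin, a secreted pattern recognition protein) was at 9.04 and 6.47 FPKM. VEPH1 shares its deposited position with PTX3 (157259743 to 157503626 once the start is raised by 1) and was at 26.3 and 23.7 FPKM. PQLC2L, annotated by RefSeq as a transcribed pseudogene under a newer name, was at 8.997 and 8.71 FPKM. Just outside, the cyclin CCNL1 was at 21.3 and 21.2 FPKM, LEKR1 at 0.513 and 0.523 FPKM and TIPARP at 12.2 and 15.6 FPKM. The log2 differences of these 3 members were -0.45 (PTX3), -0.15 (VEPH1) and -0.045 (PQLC2L), and those of the 3 genes outside were -0.0026, 0.015 and 0.34. PTX3 and VEPH1 are members only because deposited starts were read as counting from 0 and raised by 1, and with starts as written 76 members remain. At the other end, DGKG, TRA2B and IGF2BP2 were the last members, and outside them TBCCD1 was at 9.82 and 9.22 FPKM, DNAJB11 at 76.1 and 79.5 FPKM and the replication factor RFC4 at 46.2 and 38.1 FPKM. At the limit on the mean, ARL14 (0.471 and 0.626 FPKM) and SERPINI1 (0.508 and 0.937 FPKM) lay just inside, and LOC100996447 (0.518 and 0.464 FPKM) and TNFSF10 (0.673 and 0.252 FPKM) just outside.

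The members are grouped below by role. Of all members 92.3% were lower and 59.0% at least 1.2-fold lower, against 49.2% and 9.63% of all genes kept. Counts in each list follow from how the segment was picked, and no list is read as affected. Signalling enzymes and adaptors made up 12 members, of which 11 were lower and 9 at least 1.2-fold lower, with a median log2 difference of -0.40. DGKG (186147201 to 186362234), a diacylglycerol kinase, was at 2.45 and 0.922 FPKM. Its log2 difference of -1.05 was the largest downward among members, at a low level. GPR160 (170037947 to 170085395), an orphan G protein-coupled receptor, was at 13.8 and 7.77 FPKM, a difference of -0.79. PIK3CA (179148523 to 179234709), which makes the lipid that activates AKT, was at 10.2 and 7.67 FPKM, or -0.39, close to the median of its group. GNB4, a beta subunit of heterotrimeric G proteins, was the most strongly expressed of these genes, at 37.3 and 26.5 FPKM.

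The other signalling members differed by -0.55 (SCHIP1) to 0.11 (CAMK2N2). MAP3K13, a kinase upstream of JNK, was at 14.3 and 10.7 FPKM, and DVL3, a Dishevelled adaptor of Wnt receptors, at 21.2 and 16.6 FPKM. TNIK, a kinase of the Wnt pathway, was at 4.57 and 3.96 FPKM, a difference of -0.18. Phospholipase D1 (PLD1) was at 1.35 and 0.979 FPKM. These differences were not all of one size, since MAP6D1 (3.15 and 2.70 FPKM) was near TNIK while MAP3K13 was near PIK3CA. SCHIP1 (2.24 and 1.37 FPKM) and the read-through gene IQCJ-SCHIP1 (14.99 and 10.9 FPKM) share exons and a deposited position, so how reads were divided between them is uncertain. CAMK2N2, an inhibitor of calcium/calmodulin-dependent kinase II, was at 1.005 and 1.13 FPKM and was the exception in direction.

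Transcription and chromatin genes were 12 members, 11 lower and 8 at least 1.2-fold lower, with a median of -0.36. TBL1XR1, a WD-repeat subunit of the NCoR corepressor complex, was at 44.9 and 31.1 FPKM, a difference of -0.52. ACTL6A, an actin-like subunit of the BAF chromatin remodeller, was the most strongly expressed, at 85.7 and 64.0 FPKM. POLR2H, a subunit shared by the RNA polymerases, was at 78.4 and 56.4 FPKM. These 3 broadly used subunits thus lay below the members' median.

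MECOM (also called EVI1), a zinc finger transcription factor of blood stem cells and of some leukaemias, was at 13.6 and 10.2 FPKM. SKIL, the SnoN corepressor of SMAD proteins, was at 7.48 and 6.10 FPKM, and the Polycomb subunit PHC3 at 9.77 and 7.23 FPKM. The zinc finger genes ZNF639 (26.3 and 20.7 FPKM) and MYNN (8.91 and 6.71 FPKM) were lower by like amounts. Smaller differences were seen for YEATS2, a reader of acetylated histones (18.0 and 15.5 FPKM), TTC14 (14.5 and 13.0 FPKM) and MLF1 (5.71 and 5.14 FPKM). ZMAT3 (179017225 to 179071868), an RNA-binding zinc finger protein and a known target of p53, went the other way, with 10.4 and 14.5 FPKM, a difference of 0.47. The next member along the chromosome, PIK3CA, was lower. SOX2, the pluripotency factor of 3q26, is not listed in the table.

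The list of cell division and nuclear transport genes held 5 members, all lower, 2 of them at least 1.2-fold. SMC4, a core ATPase of the condensin complexes that compact chromosomes, was at 152 and 109 FPKM, and ECT2 (172750685 to 172821474), the exchange factor that activates RhoA for cytokinesis, at 148 and 104 FPKM. Both differences (-0.47 and -0.50) were among the larger ones of strongly expressed members. PDCD10 was at 56.3 and 47.6 FPKM, KPNA4, an importin alpha, at 30.3 and 26.2 FPKM, and MAGEF1 at 26.6 and 23.6 FPKM, with differences from -0.24 to -0.17. PDCD10 and MAGEF1 were placed in this list although no such role is known for them here. TERC, the telomerase RNA, is not listed in the table.

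For protein synthesis and RNA handling, 8 of 9 members were lower and 5 were at least 1.2-fold lower, with a median of -0.30. EIF4G1, the scaffold of the cap-binding complex, was at 224 and 194 FPKM, a difference of -0.21. EIF2B5, the catalytic subunit of the exchange factor for the initiation factor eIF2, was at 34.5 and 25.1 FPKM, a difference of -0.45. EIF5A2, the second gene for the hypusine-containing factor eIF5A, was at 12.8 and 13.0 FPKM and was the member of this list that was not lower. The RNA-binding proteins FXR1 (41.3 and 31.9 FPKM) and IGF2BP2 (46.9 and 36.8 FPKM) stood between these values, with differences of -0.37 and -0.35. NMD3, the export adaptor of the large ribosomal subunit, was at 48.9 and 39.5 FPKM, and the splicing regulators TRA2B and RSRC1 at 84.7 and 71.1 FPKM and at 30.9 and 23.1 FPKM. ABCF3, at 30.01 and 26.2 FPKM, had one of the smaller differences, -0.19.

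The list of mitochondrial and peroxisomal genes held 8 members, all lower, 5 of them at least 1.2-fold. TMEM41A, placed in this list although no such role is known for it here, was at 13.0 and 11.4 FPKM. MFN1, a mitofusin that fuses mitochondrial outer membranes, was at 22.9 and 15.7 FPKM, a difference of -0.54. PARL, the rhomboid protease of the inner membrane, was at 41.6 and 31.3 FPKM, or -0.41. MRPL47 of the mitochondrial ribosome was at 58.5 and 46.9 FPKM, and the elongation factor GFM1 at 45.8 and 39.6 FPKM. The protein import factor DNAJC19 (24.5 and 19.6 FPKM), the carboxylase subunit MCCC1 (14.7 and 12.6 FPKM) and the peroxisomal enzyme EHHADH (5.33 and 4.24 FPKM) lay between -0.32 and -0.22. The smallest difference of the list was the -0.18 of TMEM41A.

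Protein turnover genes, 5 members, were all lower. PSMD2, a large subunit of the regulatory particle of the proteasome and the most strongly expressed member of the segment, was at 433 and 404 FPKM, a difference of only -0.10. The deubiquitinase USP13 was at 27.3 and 19.9 FPKM (-0.44), and the SUMO protease SENP2 at 18.8 and 14.1 FPKM (-0.40). DCUN1D1, which promotes neddylation of cullins, was at 13.8 and 10.4 FPKM, and the ubiquitin ligase adaptor KLHL24 at 1.64 and 1.17 FPKM. PSMD2 thus stood apart from the other 4, all of which were at least 1.2-fold lower.

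Membrane traffic, glycosylation and transport was the largest list, with 15 members, 14 lower and 6 at least 1.2-fold lower, and a median of -0.23. AP2M1, the cargo-binding subunit of the clathrin adaptor AP-2, was at 366 and 314 FPKM, and NCEH1, a cholesteryl ester hydrolase, at 185 and 163 FPKM. SEC62, which helps proteins into the endoplasmic reticulum, was at 35.8 and 27.2 FPKM, a difference of -0.39. B3GALNT1, which makes the globoside glycolipid, was at 19.6 and 13.8 FPKM, or -0.49, the largest difference of this list. The others spread from B3GNT5, a glycosyltransferase of lacto-series lipids (7.12 and 6.75 FPKM, -0.071), to VPS8 of the endosomal CORVET complex (6.78 and 5.05 FPKM, -0.39) and the exporter ABCC5 (20.1 and 15.3 FPKM, -0.39).

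Of the remaining traffic members, those named next differed by -0.33 (ECE2) to -0.16 (ALG3). The mannosyltransferase ALG3 was at 48.1 and 43.0 FPKM, the lysosomal protein MFSD1 at 33.7 and 28.8 FPKM and the Golgi protein GOLIM4 at 17.9 and 15.6 FPKM. The phospholipid flippase ATP11B was at 18.2 and 14.7 FPKM, FNDC3B at 15.5 and 13.1 FPKM and the chloride channel CLCN2 at 3.03 and 2.49 FPKM. ECE2, an endothelin-converting enzyme, was at 22.5 and 17.8 FPKM and shares its deposited position with CAMK2N2. ARL14, a small GTPase near the limit on the mean, was the one member of the list that was higher, with values given above.

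The list of secreted, surface and immune proteins held 8 members, of which 7 were lower and 5 at least 1.2-fold lower. LXN (latexin, an inhibitor of carboxypeptidases) was at 10.2 and 5.62 FPKM, a difference of -0.81, second only to DGKG. It shares its deposited position (158644528 to 158692571 once the start is raised by 1) with GFM1, which differed by -0.21. Reads of overlapping genes can be hard to divide. NLGN1, a neuroligin of synapses, was at 3.01 and 1.68 FPKM (-0.69), and CHRD, the BMP antagonist chordin, at 1.49 and 0.991 FPKM (-0.42). IL12A, a subunit of interleukin-12, was at 1.07 and 0.794 FPKM. FAM131A, at 7.83 and 6.65 FPKM, and VEPH1, with values given above, were also placed here without such a known role. SERPINI1 (neuroserpin) was higher, by 0.51, with both values under 1 FPKM. The cilium and axoneme list held 2 members, both lower, the intraflagellar transport subunit IFT80 (9.63 and 6.88 FPKM) and LRRC34 (1.26 and 0.840 FPKM). LRRC34 was placed there although no such role is known for it here. IFT80 shares its deposited position with SMC4. TMEM212, in no list, was at 2.06 and 2.13 FPKM.

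Genes elsewhere in the genome that work with members were set beside them. For 13 members, 84 listed genes of complexes that they belong to or act with were kept as partners. The median log2 difference of the partners was 0.0073 against -0.39 for the 13 members. None of the 84 was at least 1.2-fold lower and 3 were at least 1.2-fold higher (all genes kept, 9.63% and 10.6%). Many partners are strongly expressed, and strongly expressed genes differed less. In the rest of chromosome 3 the quartiles were -0.049 and 0.12 at 30 FPKM or more, and -0.12 and 0.23 from 0.5 to 2 FPKM. The lists include PIK3CB and PIK3CD, and EIF4G2 and EIF4G3, which are related to PIK3CA and EIF4G1 and take their place rather than joining them. Without these 4 the median of the other 80 was again 0.0073. TBL1X, a paralog of TBL1XR1, stayed among the 80, as did RHOA, which ECT2 activates. Each of the 13 members was lower than every one of its partners. Members come from a segment picked as lower and partners do not, so nothing is read from this distance. Levels of partner genes were compared only as differences between the groups.

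For condensin, the partner of SMC4 in its ring, SMC2, was at 38.8 and 33.9 FPKM, and the 7 partners ranged from -0.19 to 0.078 against -0.47 for SMC4. For phosphoinositide 3-kinase, the regulatory subunit PIK3R1 was at 6.34 and 7.18 FPKM, and the 3 regulatory subunits ranged from -0.038 to 0.17 against -0.39 for PIK3CA. The alternative catalytic subunits PIK3CB and PIK3CD were at -0.17 and -0.042. For the exchange factor eIF2B, 4 partners ranged from -0.080 to 0.29 against -0.45 for EIF2B5. In each of these complexes the member lay well below its partners, which describes how the segment was picked and is not a finding. So it did for RNA polymerase II, where 11 partners of POLR2H ranged from -0.096 to 0.31, and for the BAF complex, where 10 partners of ACTL6A ranged from -0.10 to 0.14. The narrowest was the proteasome, where 16 partners ranged from -0.071 to 0.14 against -0.10 for PSMD2. Among the 5 partners of TBL1XR1 its paralog TBL1X was the lowest, at -0.25. In the deposited table AP2A2 and SMARCB1, partners of AP2M1 and ACTL6A, are placed on alternate contigs.

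Paralogs, genes that arose by duplication and often have a like function, were compared in the same way. For 14 members, 24 paralogs were kept, with a median of -0.0021 against -0.34 for the members. None of the 24 was at least 1.2-fold lower or higher (all genes kept, 9.63% and 10.6%). Members come from a segment picked as lower and paralogs do not, so nothing is read from the distance between these medians. MFN2 was at 35.1 and 37.6 FPKM, while MFN1 was lower as given above. FXR2 was at 13.1 and 14.6 FPKM and FMR1 at 17.5 and 16.1 FPKM, beside FXR1 at -0.37. The distance was smallest for EIF5A2 (0.021) and EIF5A (0.034), and small for IGF2BP2 (-0.35) and IGF2BP3 (-0.25). Of these partners and paralogs 7 lie on chromosome 3 outside the segment, from -0.17 for PIK3CB to 0.094 for EIF4A2, with a median of 0.0051.

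**Figure D4:**
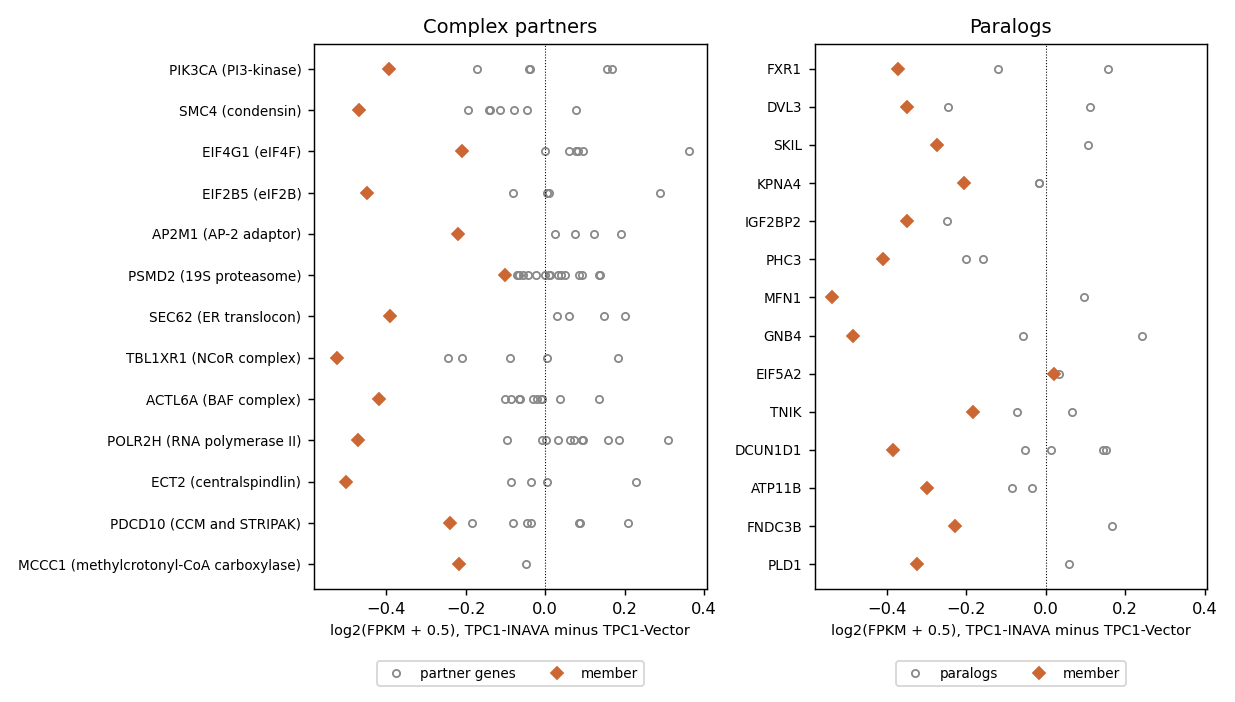
Log2 difference between the groups (horizontal axis, log2 of FPKM + 0.5). The left panel holds members with a partner list (diamonds) and the genes listed, alternative subunits included (open circles). The right panel holds members (diamonds) with their paralogs (open circles). On the left, diamonds lie between -0.52 and -0.10 and to the left of every open circle at the same height, while the circles scatter about 0. Members come from a segment picked as lower, and partners and paralogs do not.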

How the data were processed

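RNA sequencing of TPC1-Vector and TPC1-INAVA cells, 2 libraries per group, was analysed from the deposited gene table, in which the authors gave FPKM values with the libraries of a group already combined. The submitters' processing notes name CASAVA, Cufflinks 2.1.1, Cuffdiff and the build hg38. The aligner and annotation are not given in the sources used here, and depth per library is unknown. The table's other columns, the authors' own log2 ratio, direction, p-value and q-value, were not used, so no test was made. Genes averaging 0.5 FPKM or more over the groups were kept. A gene was counted as lower or higher at 1.2-fold or 1.5-fold on log2(FPKM + 0.5).

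The segment, gene lists and genes were chosen with earlier results of these data known. Deposited starts were raised by 1, since 2299 of 9433 genes alone at their position started exactly 1 base below the RefSeq start and 280 started at it. Without this step VEPH1 and PTX3 would fall outside, leaving 76 members. All 78 members overlapped a like-named gene in GENCODE 29, and 13 share a deposited position with another gene, which is that of the whole locus. Named were INAVA, the 8 largest downward differences among members at 1 FPKM or more in one group, members at least 1.2-fold higher, known 3q26 genes, members leading a role list by level or difference, members with partners or paralogs, and genes at the ends. Other members complete each list. The summary was tested on a simulated table. Alternatives were pseudocounts of 0.1 and 1, no filter, an average of 1 FPKM or more, median-of-ratios and quantile scaling, and no genes at shared positions. Starts as written, the segment with the genes left out by name and partner lists without alternative subunits were added after seeing the data. Python 3.11.15, numpy 2.4.6, pandas 2.3.3 and matplotlib 3.10.9 were used.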

Additional observations from a re-analysis of the deposited data

How the results depend on the processing

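No paired analysis was possible because libraries were not separated in the deposited columns, and for the same reason leaving out each library and the planned limma fits were not run. Over the 9 alternatives run on the members, the members' median log2 difference ranged from -0.34 to -0.30 and the median of the rest of chromosome 3 from -0.0078 to 0.0067. The summed FPKM of the members had a ratio of 0.808 to 0.832 between the groups. The members lower numbered 60 to 79, and those at least 1.2-fold lower 39 to 52, since the number of genes counted also changed. Only 1 member was at least 1.2-fold higher when an average of 1 FPKM or more was asked, since SERPINI1 is under that limit. With the genes left out by name counted in, a choice made after seeing the data, 8 of 88 genes were at least 1.5-fold lower. All 42 named members kept their direction in the 7 alternatives run on them that gave a value. A pseudocount cannot change a direction, and the filters leave the value of each gene as it was. Only median-of-ratios and quantile scaling could have changed a direction. DGKG ranged from -1.32 with a pseudocount of 0.1 to -0.84 with 1, since a pseudocount shrinks differences of weak genes. Unknown depth leaves the counting error of members near 1 FPKM, such as DGKG, unstated.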

Other observations

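The segment also holds genes that the counts above leave out. Of 10 genes left out by name and above the limit on the mean, 7 were lower in TPC1-INAVA (all genes kept, 49.2%). The median log2 difference of the 10 was -0.38. With so few genes, nothing is read from this count. The lower ones include SHOX2, a homeobox gene (2.50 and 0.487 FPKM), and the ribosomal protein-like gene RPL22L1 (58.5 and 36.3 FPKM). Also lower were TRIM59 (14.4 and 8.82 FPKM), which lies beside IFT80 and SMC4, and the atypical protein kinase C gene PRKCI (39.1 and 28.2 FPKM). LINC01322 (1.19 and 1.54 FPKM), LINC00501 (0.585 and 0.587 FPKM) and KLHL6-AS1 (0.661 and 0.716 FPKM) were higher. Under the limit were 10 other genes, 7 of them lower, among them ACTRT3 (0.606 and 0.0486 FPKM) next to MYNN, and TNFSF10, the death ligand TRAIL. C3orf80, PPM1L and KCCAT211, also under the limit, were higher. These genes were named after their values were seen.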
